A study of Homo sapiens with 6 samples.

Results

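The genes described here are 42 components of the autophagy machinery. They were chosen by name for their role in starting autophagy, handling membrane lipids, conjugating ubiquitin-like proteins, capturing cargo or regulating these steps. The choice was made with earlier results of these data known. All 42 were found among the 19977 gene symbols of the table, 40 by the listed symbol and 2 by an older one, ATG101 as C12orf44 and RUBCN as KIAA0226. The values are TPM, which divide reads by transcript length and by the library's total and so let levels be compared between genes, in U2OS cells, a human osteosarcoma line. The tested cells received an siRNA targeting NUDT5 (siNUDT5, 3 libraries) and the others a non-targeting control siRNA (siCtrl, 3 libraries). RNA was taken 48 hours after transfection, with no other treatment, and NUDT5 encodes a hydrolase of ADP-ribose. Whether each library had its own culture is not stated, and p-values therefore reflect library-to-library spread that may be technical. The sources used here do not give the siRNA sequences.

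Macroautophagy encloses cytoplasm in a new membrane sac, the autophagosome, which fuses with lysosomes so that its content is degraded. The ULK1 kinase complex starts the process, the VPS34 lipid kinase complex marks the membrane with phosphatidylinositol 3-phosphate, WIPI proteins read that mark, and ATG9A and ATG2 proteins bring lipid. Ubiquitin-like conjugation, which ends in the ATG12-ATG5-ATG16L1 complex, attaches LC3 and GABARAP proteins to the membrane, where receptors such as SQSTM1 tie cargo to them. In cultured cancer cells autophagy is usually followed through LC3 lipidation and degradation of SQSTM1 protein, neither of which mRNA levels show.

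NUDT5 stood at 3.04, 2.74 and 2.67 TPM in siNUDT5 libraries 1 to 3 and at 46.2, 49.0 and 52.0 TPM in siCtrl libraries 1 to 3, so the target was low in every library labelled siNUDT5. An exact two-sided permutation test had p = 0.1, the least that this test can give with 3 libraries on each side. Relative depth, read from the steps of low values, lay between 89.4% and 118% of that of siCtrl 1 in siNUDT5 libraries, while siCtrl 2 had 64.1% and siCtrl 3 had 112%. siCtrl 2 also stood apart in expression, with a median absolute difference of 0.296 from siCtrl 1 and 0.227 from siCtrl 3 on the log2(TPM + 1) scale. The other 4 pairs within a group differed by 0.0967 to 0.134. Of 5 mesenchymal and osteoblast markers, summed at 4762 to 4862 TPM in siNUDT5 and 4058 to 4353 TPM in siCtrl, COL1A2 was nearly absent, at no more than 0.393 TPM. The 4 epithelial markers summed to 9.57 to 9.90 TPM in siNUDT5 and 11.8 to 15.8 TPM in siCtrl, and the part of either list in the results below was not tested. Of 4 blood cell markers 3 were listed at 0 in all 6 libraries. Of 3 endothelial markers PECAM1 was not found by symbol, and the other 2 summed to at most 0.345 TPM in siNUDT5 and 0.527 TPM in siCtrl.

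Of the 42 genes, 5 changed, 35 did not pass the test and 2 were not tested. WIPI1, ATG5, ATG4A and ATG16L1 were higher in siNUDT5, and ATG13 was lower. limma, two-sided on log2(TPM + 1), was run across 12236 genes averaging 1 TPM or more, and the threshold was a Benjamini-Hochberg adjusted p of 0.05. In this way 40 members were tested, and 4 (higher) and 1 (lower) passed, 12.5% in all, against 16.1% of all tested genes, 10.9% being higher and 5.2% lower. The members' share was thus not above the background. Their median log2 change was 0.16, against 0.05 for all tested genes, and their median absolute log2 change was 0.25, against 0.17. The median of the members was 0.094 without siCtrl 1, against 0.033 for all tested genes, and 0.096 under quantile normalization, against -0.0068. Summed over all 42 genes the TPM came to 2030.3 ± 63.7 in siNUDT5 and 1919 ± 98.6 in siCtrl (SD, n = 3 each). Since bulk RNA was measured, a change in the share of cells that express a gene and a change in RNA per cell cannot be told apart.

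WIPI1 encodes a protein that binds phosphatidylinositol 3-phosphate at the site where autophagosomes form, and it changed the most. It had 36.4, 39.9 and 34.5 TPM in siNUDT5 1 to 3 and 16.0, 19.9 and 15.7 TPM in siCtrl 1 to 3. The groups lay far apart, with siCtrl 2 the highest control. The ratio of the means was 2.15 and the log2 change 1.06 (standard error 0.115, adjusted p = 0.00127). In GENCODE 29, 539 of the 1890 exonic bases of WIPI1 overlap exons of ARSG on the other strand, and the sources used here do not say whether the authors' counting used strand. ARSG itself stood at 0.724 TPM in siNUDT5 and 0.575 TPM in siCtrl.

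ATG5 encodes the protein to which ATG12 is joined, and ATG16L1 encodes the partner that places the pair on the forming membrane. ATG5 had 42.6, 35.0 and 34.5 TPM in siNUDT5 1 to 3 and 21.5, 25.4 and 20.5 TPM in siCtrl 1 to 3. siNUDT5 1 was the highest, and every siNUDT5 library exceeded every control. The ratio of the means was 1.66 and the log2 change 0.71 (standard error 0.121, adjusted p = 0.00704). ATG16L1 had 23.9, 25.4 and 20.6 TPM in siNUDT5 1 to 3 and 17.8, 14.9 and 15.7 TPM in siCtrl 1 to 3. Its groups were separated by a smaller gap, between siNUDT5 3 and siCtrl 1. The ratio of the means was 1.45 and the log2 change 0.50 (standard error 0.114, adjusted p = 0.0211), and the call was lost without siNUDT5 1, siNUDT5 2 or siCtrl 3, with adjusted p up to 0.101.

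ATG4A encodes 1 of 4 ATG4 proteases, which trim LC3 and GABARAP precursors and later release them from membrane. It had 6.53, 6.25 and 6.56 TPM in siNUDT5 1 to 3 and 3.77, 4.11 and 3.42 TPM in siCtrl 1 to 3. Values within each group lay close together and the groups were well apart. The ratio of the means was 1.71 and the log2 change 0.65 (standard error 0.106, adjusted p = 0.00592). With a pseudocount of 5 the log2 change was 0.39, still past the threshold.

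ATG13 encodes the adaptor that holds the ULK1 complex together. It had 34.9, 33.5 and 32.6 TPM in siNUDT5 1 to 3 and 48.9, 46.6 and 51.6 TPM in siCtrl 1 to 3. All siNUDT5 libraries were below all controls. The ratio of the means was 0.686 and the log2 change -0.53 (standard error 0.0843, adjusted p = 0.00544).

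**Figure D1:**
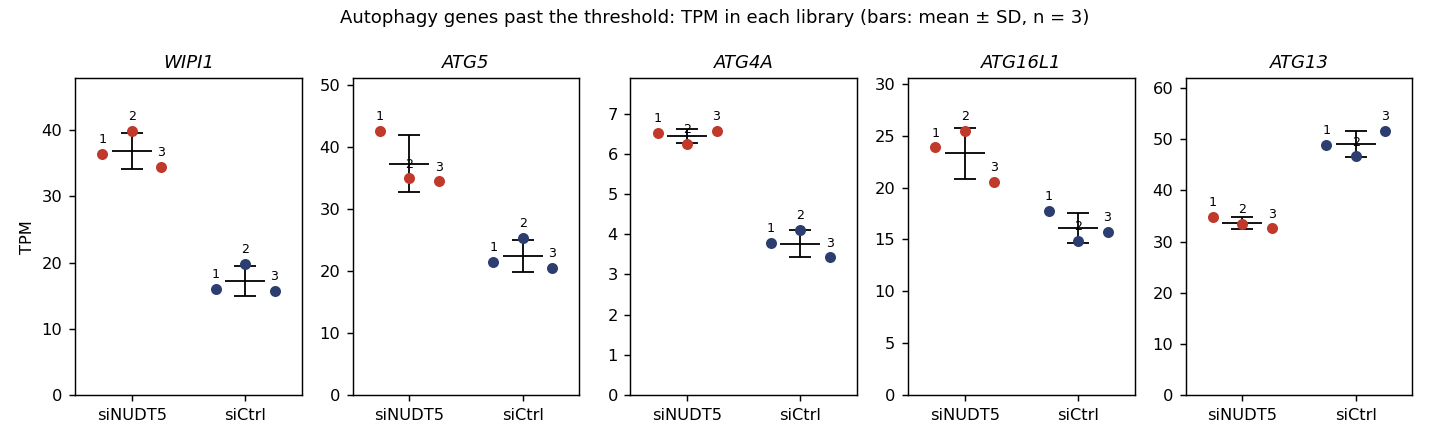
TPM (vertical axes from 0) of the 5 autophagy genes past the threshold in siNUDT5 (left) and siCtrl (right), each point a library with its replicate number and bars the mean ± SD of 3 libraries. WIPI1, ATG5, ATG4A and ATG16L1 were higher and ATG13 was lower in siNUDT5, with no overlap between the groups.

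The 3' untranslated regions of ATG5 and ATG16L1 share a 7-base word, GATTAAC, with those of TMEM41B and RTN3, other autophagy genes that rose and are described further on. The word was picked in an earlier search of these same log2 changes as one common among genes that rose, so its presence in genes that rose is a description and supports nothing. The sites are shown because 4 autophagy genes that rose hold the word, which also stands in CALCOCO2, PRKAA2 and CCPG1, none of which passed. Of the 55 further autophagy genes tested 4 held it (7.27%). They are given with the word in capitals, in the direction of the transcript, from the longest 3' untranslated region in GENCODE 29 (build GRCh38), and no genome coordinates came with the authors' values.
ATG5, chr6:106186193-106186219, minus strand: ttgtatttctGATTAACaaataaacag
ATG16L1, chr2:233294803-233294829, plus strand: ttaagcattgGATTAACggaaactccc
TMEM41B, chr11:9283363-9283389, minus strand: accatctcagGATTAACaggtgcatcc
RTN3, chr11:63758594-63758620, plus strand: aagaagtcatGATTAACttatgaaaaa

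Of the 40 tested members 3 held GATTAAC (7.50%), ATG5, ATG16L1 and CALCOCO2, against 6.19% of 11946 tested genes with a 3' untranslated region. All 3 log2 changes were above 0, as were those of 513 of the 740 genes that held the word. The median log2 change of those 740 genes was 0.14, against 0.04 for genes without the word. Since the word was picked from these same log2 changes, these values describe that choice and support nothing. AAGACTT or AGACTTA, words picked in the same search as common among genes that fell, stood in 9 members (22.5%), close to the 22.4% of all searched genes. Of these 9 genes 6 had a log2 change above 0, ATG5 among them, and ATG13, the member that fell, held neither word. Of the 55 further autophagy genes tested 10 held either word (18.2%), 7 with a log2 change above 0 and 3 below. ATL3, which rose and is described further on, was among them, with AAGACTT at base 4259 of a region of 5232 bases. Of all 2672 holders 1304 had a log2 change above 0, and the median log2 change was -0.0074 with and 0.066 without either word. These words too were picked from the same log2 changes, so their medians are a description only.
ATG5 held words of both kinds, AAGACTT at base 411 and GATTAAC at base 513 of a region of 2246 bases, and the AAGACTT site is shown because it lies in a gene that rose.
ATG5, chr6:106186295-106186321, minus strand: tgtgacatgaAAGACTTaccggaccac

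Promoters, taken as the 250 bases before and 50 bases after the start in RefSeq (GRCh38.p14), were at hand for 35 of the tested members and 9905 of all tested genes. The E-box core CACGTG, found in the element that TFEB reads, stood in 2 member promoters on either strand, those of ATG14 and ATG3 (5.71%), against 10.3% of all promoters. Its palindromic form TCACGTGA, which contains CACGTG, stood in that of ATG3 and in 1.99% of all. TGACNNNGC, the antioxidant response element, stood in those of ATG101, MAP1LC3B and CALCOCO2 (8.57%) and in 15.0% of all. TGATGNAA, the ATF4 and C/EBP element, stood in no member promoter and in 1.74% of all. The window given for ATG5 lies within the gene by the GENCODE 29 transcripts. It held none of these motifs and is counted among the 35, so the member shares include it. Nothing else is read from it.

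In the initiation complex 1 of 5 genes fell, ATG13, and 4 did not pass, while 5.2% of all tested genes fell. The kinase genes ULK1 and ULK2 differed in sign. ULK1 had 5.70, 5.49 and 5.03 TPM in siNUDT5 1 to 3 and 4.50, 3.28 and 4.51 TPM in siCtrl 1 to 3 (log2 change 0.34, adjusted p = 0.120). ULK2, the less abundant, had 1.69, 1.36 and 1.59 TPM in siNUDT5 and 2.27, 2.21 and 1.93 TPM in siCtrl (-0.30, adjusted p = 0.116). Neither pair of groups overlapped, but neither gene passed. RB1CC1, which encodes the scaffold FIP200, had 107, 80.5 and 91.4 TPM in siNUDT5 and 63.2, 110.4 and 71.2 TPM in siCtrl, where siCtrl 2 exceeded every siNUDT5 library. ATG101, which stabilizes ATG13, averaged 107 ± 7.86 TPM in siNUDT5 and 86.7 ± 11.1 TPM in siCtrl (SD, n = 3 each; log2 change 0.30, adjusted p = 0.101).

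None of the 7 genes of the VPS34 lipid kinase complexes and their regulators passed, against 16.1% of all tested genes. Their log2 changes ran from -0.06 to 0.28, with a median of 0.14. PIK3C3, the kinase VPS34 itself, averaged 4.95 ± 0.421 TPM in siNUDT5 and 4.35 ± 1.15 TPM in siCtrl (SD, n = 3 each). The regulatory subunit genes PIK3R4 and BECN1 were within the spread, at 34.1 ± 0.983 and 64.3 ± 1.21 TPM in siNUDT5 and 32.6 ± 4.87 and 60.7 ± 4.60 TPM in siCtrl. ATG14, which directs the complex to autophagosome formation, averaged 20.7 ± 0.934 TPM in siNUDT5 and 17.1 ± 1.58 TPM in siCtrl (log2 change 0.27, adjusted p = 0.109). UVRAG, which replaces ATG14 in the endosomal complex, averaged 15.2 ± 0.498 TPM in siNUDT5 and 15.9 ± 1.83 TPM in siCtrl. RUBCN, an inhibitor of the UVRAG complex, averaged 13.0 ± 0.772 TPM in siNUDT5 and 10.6 ± 0.624 TPM in siCtrl (0.28, adjusted p = 0.0926). AMBRA1, which links ULK1 and BECN1, had a log2 change of 0.14. The groups did not overlap for 3 of the 7, ATG14, RUBCN and AMBRA1, while 37.3% of all tested genes did not overlap.

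Among 7 genes of phosphoinositide reading and lipid transfer WIPI1 rose and 6 did not pass, while 10.9% of all tested genes rose. All 7 log2 changes were above 0, although that of VMP1 turned negative under both other scalings of the libraries. The median of all tested genes was also above 0 as deposited, at 0.05. It was -0.0029 under median-ratio scaling and -0.0068 under quantile normalization. WIPI2, the relative of WIPI1 that recruits ATG16L1, was the more abundant of the pair, at 83.5, 88.7 and 81.2 TPM in siNUDT5 1 to 3 and 75.4, 68.5 and 73.3 TPM in siCtrl 1 to 3. The groups did not overlap, yet the log2 change was 0.22 with an interval of 0.03 to 0.41 (adjusted p = 0.104), below the interval of WIPI1, 0.80 to 1.33. ATG9A, the scramblase carried by vesicles to the forming membrane, had 44.0, 46.6 and 41.5 TPM in siNUDT5 1 to 3 and 37.6, 28.1 and 36.8 TPM in siCtrl 1 to 3. Again the groups were apart and the gene did not pass (0.37, adjusted p = 0.0791). WDR45, another WIPI protein gene (0.30), the lipid transfer genes ATG2A (0.15) and ATG2B (0.22), and VMP1 (0.03), an endoplasmic reticulum scramblase, had overlapping groups. VMP1 was the second most abundant member, at 169 ± 7.55 TPM in siNUDT5 and 166 ± 23.1 TPM in siCtrl (SD, n = 3 each).

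**Figure D2:**
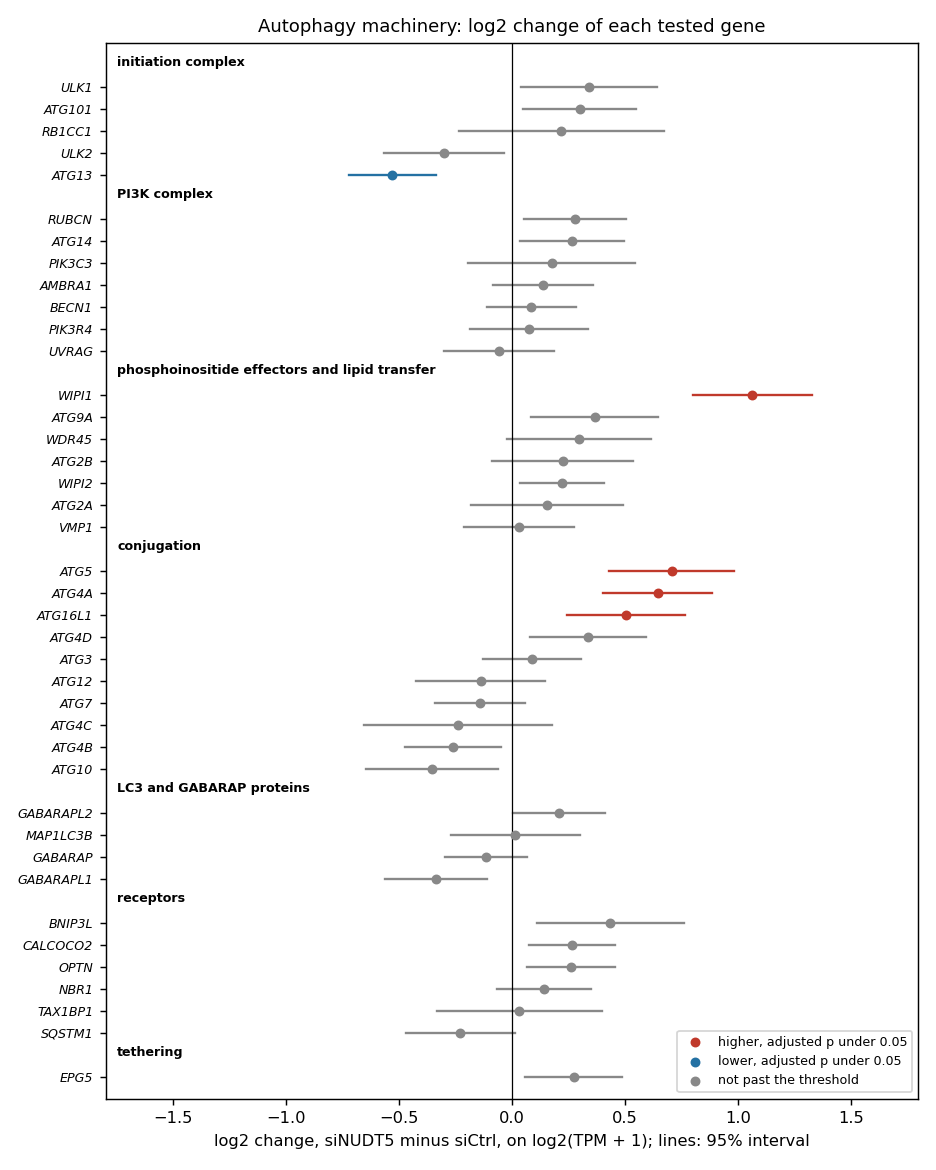
Log2 change, siNUDT5 minus siCtrl on the log2(TPM + 1) scale, of the 40 tested autophagy genes grouped by role, with points for estimates and lines for 95% intervals from limma. The 4 genes that rose are in red and ATG13 in blue. Of the 35 grey genes, which did not pass, 25 lie above 0, although VMP1, MAP1LC3B and TAX1BP1 turn negative under other scalings. The median of all tested genes was also above 0, at 0.05.

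In the conjugation machinery 3 of 10 tested genes rose, ATG5, ATG4A and ATG16L1, and 7 did not pass. Of all tested genes 10.9% rose, and without ATG16L1, whose call was lost in 4 of 13 alternatives, 2 members of the group remain. The 10 did not shift as a block, with a median log2 change of -0.03 and a range from -0.35 to 0.71. ATG12, the ubiquitin-like partner of ATG5, had 32.1, 30.2 and 30.1 TPM in siNUDT5 1 to 3 and 28.2, 39.5 and 35.3 TPM in siCtrl 1 to 3 (-0.14, adjusted p = 0.499). ATG10, the E2-like enzyme that joins ATG12 to ATG5, had 5.24, 5.06 and 4.69 TPM in siNUDT5 and 5.84, 7.97 and 6.31 TPM in siCtrl. All siNUDT5 values of ATG10 were below all controls (-0.35, adjusted p = 0.0986). ATG7, the E1-like enzyme of the system, varied least, at 12.8 ± 0.142 TPM in siNUDT5 and 14.2 ± 0.0626 TPM in siCtrl (SD, n = 3 each). Its groups did not overlap but the log2 change was -0.14 (adjusted p = 0.308). ATG3, the E2-like enzyme for LC3, averaged 85.9 ± 2.01 TPM in siNUDT5 and 81.0 ± 8.54 TPM in siCtrl. ATG16L2, a relative of ATG16L1, averaged 0.775 ± 0.0692 TPM in siNUDT5 and 0.838 ± 0.122 TPM in siCtrl and was too low to be tested.

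The ATG4 protease genes differed among themselves. ATG4A was the least abundant of the 4 and held 10.9 ± 0.610% of their summed TPM in siNUDT5, against 6.22 ± 0.246% in siCtrl (SD, n = 3 each). The sum itself was 59.2 ± 4.14 TPM in siNUDT5 and 60.5 ± 3.98 TPM in siCtrl, within the spread. ATG4B, whose product is the most active of the 4 on LC3, had 20.2, 18.0 and 18.7 TPM in siNUDT5 1 to 3 and 24.1, 21.8 and 22.9 TPM in siCtrl 1 to 3 (log2 change -0.26, adjusted p = 0.0964). ATG4D went the other way without passing, at 16.4 ± 1.28 TPM in siNUDT5 and 12.8 ± 1.40 TPM in siCtrl (0.33, adjusted p = 0.0790). ATG4C averaged 17.3 ± 2.25 TPM in siNUDT5 and 21.0 ± 5.79 TPM in siCtrl, where siCtrl 2 stood at 27.5 TPM, above the others.

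None of the 4 tested LC3 and GABARAP genes passed, against 16.1% of all tested genes, and MAP1LC3A was listed at 0 in all 6 libraries. The 5 genes summed to 422 ± 15.9 TPM in siNUDT5 and 425 ± 19.2 TPM in siCtrl (SD, n = 3 each). GABARAP had 143, 146 and 142 TPM in siNUDT5 1 to 3 and 167, 157 and 144 TPM in siCtrl 1 to 3. GABARAPL2 came next, with 142, 140.4 and 133 TPM in siNUDT5 1 to 3 and 108, 123 and 129 TPM in siCtrl 1 to 3. GABARAP was higher than GABARAPL2 in all 6 libraries, narrowly so in siNUDT5 1 (143 against 142 TPM).

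MAP1LC3B, the LC3 gene most used to follow autophagy, was close in mean, at 106 ± 8.44 TPM in siNUDT5 and 106 ± 17.2 TPM in siCtrl (SD, n = 3 each). The log2 change was 0.01 (interval -0.27 to 0.30), and the sign turned under both other scalings. MAP1LC3B2, a near-identical copy, stood at 12.7 TPM in siNUDT5 and 11.9 TPM in siCtrl, and the sources used here do not say how shared reads were counted. GABARAPL1 had 35.0, 36.6 and 29.9 TPM in siNUDT5 1 to 3 and 44.1, 41.9 and 42.5 TPM in siCtrl 1 to 3. All siNUDT5 values were below all controls, and at a log2 change of -0.34 with adjusted p = 0.0524 it lay just outside the threshold. GABARAPL1 held 7.999 ± 0.608% of the family's summed TPM in siNUDT5, against 10.1 ± 0.706% in siCtrl. GABARAPL2 held 32.8 ± 0.185% in siNUDT5, against 28.2 ± 2.24% in siCtrl (log2 change of its level 0.21, adjusted p = 0.152).

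**Figure D3:**
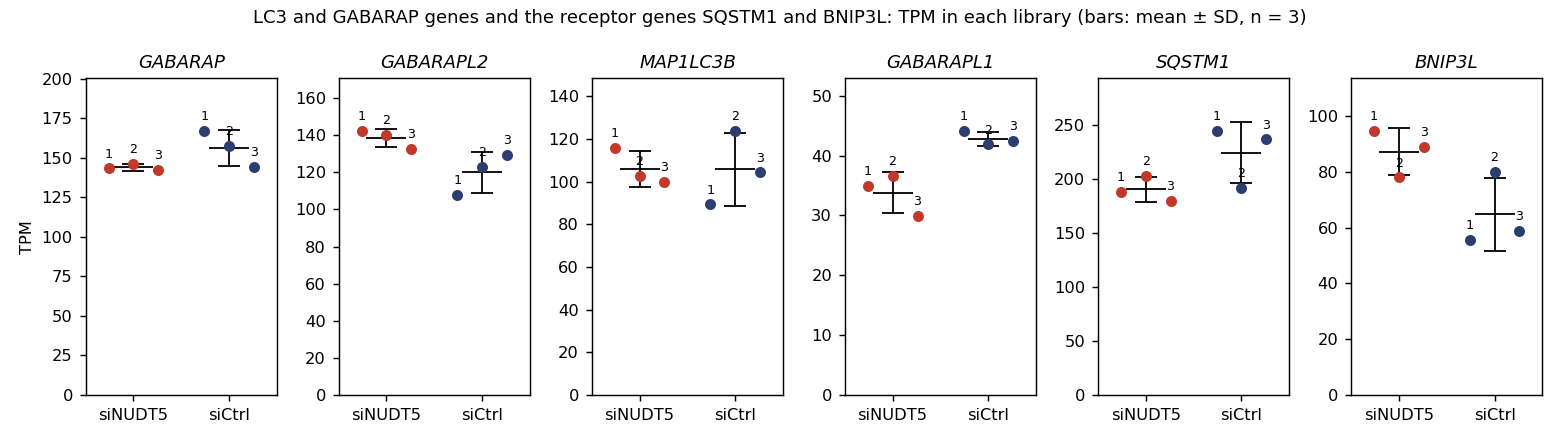
TPM (vertical axes from 0) of 4 LC3 and GABARAP genes and of the receptor genes SQSTM1 and BNIP3L in siNUDT5 (left) and siCtrl (right), each point a library with its replicate number and bars the mean ± SD of 3 libraries. The groups did not overlap for GABARAPL2 and GABARAPL1, and siCtrl 2 lay beside the siNUDT5 libraries for SQSTM1 and BNIP3L.

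None of the 6 receptor genes passed with all libraries. SQSTM1, which encodes the ubiquitin-binding receptor p62 and was the most abundant member, had 188, 203 and 179.5 TPM in siNUDT5 1 to 3 and 244, 192 and 237 TPM in siCtrl 1 to 3. The groups overlapped only through siCtrl 2 (log2 change -0.23, adjusted p = 0.180). BNIP3L, a mitochondrial receptor, had 94.5, 78.0 and 88.8 TPM in siNUDT5 and 55.6, 79.8 and 58.8 TPM in siCtrl. Here too siCtrl 2 was the control that overlapped, and the log2 change was 0.44 (adjusted p = 0.0741). Without siCtrl 2 both passed, BNIP3L with a log2 change of 0.59 (adjusted p = 0.000316) and SQSTM1 with -0.34 (adjusted p = 0.00347). In that fit 31.1% of all tested genes passed, against 16.1% with all libraries. With any other library left out neither gene passed, with adjusted p up to 0.223 for BNIP3L and 0.428 for SQSTM1.

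The other receptors are ubiquitin-binding proteins. CALCOCO2, which encodes NDP52, had 47.6, 47.6 and 46.6 TPM in siNUDT5 1 to 3 and 37.1, 41.5 and 39.0 TPM in siCtrl 1 to 3. OPTN had 58.1, 55.8 and 56.3 TPM in siNUDT5 and 45.2, 51.1 and 45.5 TPM in siCtrl. For both, every siNUDT5 library exceeded every control, with log2 changes of 0.27 (adjusted p = 0.0640) and 0.26 (adjusted p = 0.0739). NBR1 averaged 72.2 ± 0.380 TPM in siNUDT5 and 65.5 ± 6.31 TPM in siCtrl, and TAX1BP1 averaged 109 ± 13.1 TPM in siNUDT5 and 108 ± 25.1 TPM in siCtrl (SD, n = 3 each). EPG5, a tether that brings autophagosomes to lysosomes, averaged 17.3 ± 0.380 TPM in siNUDT5 and 14.1 ± 0.921 TPM in siCtrl. Its groups did not overlap and the log2 change was 0.27 (adjusted p = 0.0846).

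In 21 of the 40 tested members no value of siNUDT5 lay within the range of siCtrl, nor the reverse, 15 being higher and 6 lower in siNUDT5. Among all tested genes 37.3% did not overlap, 24.3% being higher and 12.9% lower. Of the 35 members that did not pass, 16 were of this kind, 11 with higher and 5 with lower values in siNUDT5. siCtrl 2 was the highest control for 22 of the 40 members and the lowest for 14, against 49.96% and 39.8% of all tested genes. Without it 16 members passed, 12 higher and 4 lower, among 3802 genes of the whole table (31.1%). The 5 genes called with all libraries were among these 16, and the 11 others were RB1CC1, ATG14, ATG9A, ATG4B, GABARAPL1, SQSTM1, NBR1, OPTN, CALCOCO2, BNIP3L and EPG5. RB1CC1 moved the most, to a log2 change of 0.46 (adjusted p = 0.00590) from 0.22 (adjusted p = 0.503).

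**Figure D4:**
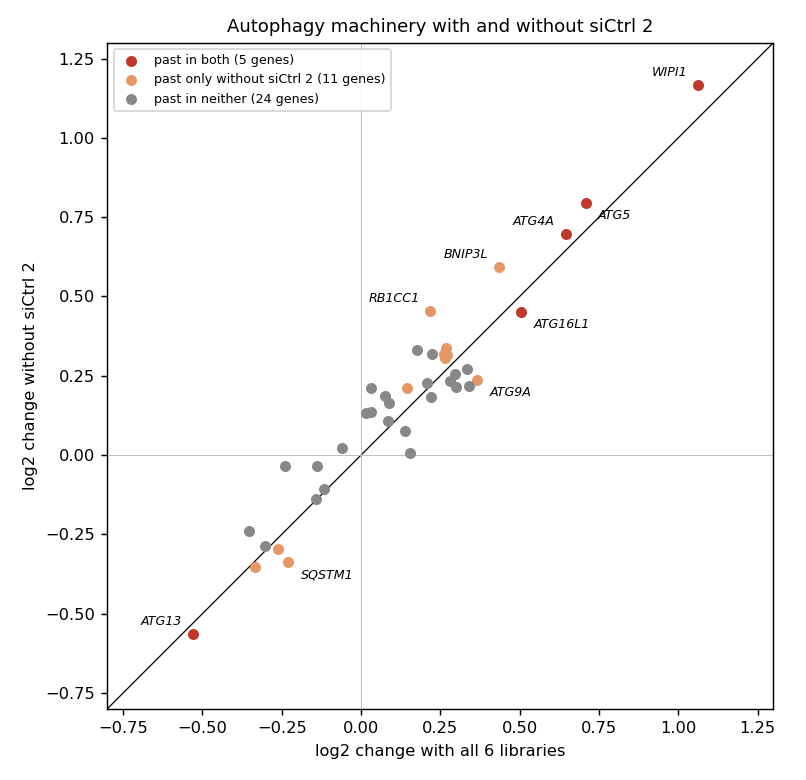
Log2 change, siNUDT5 minus siCtrl on log2(TPM + 1), of the 40 tested autophagy genes with all 6 libraries (horizontal) and without siCtrl 2 (vertical), with a line of equality and colours for the calls. The 5 genes called with all libraries kept their call, 11 passed without siCtrl 2 but not with all 6 libraries, and 24 passed in neither fit.

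Beyond the 42 genes, 58 further autophagy genes in 4 lists were examined, chosen with earlier results of these data known. Of 55 tested, 8 rose, 5 fell and 42 did not pass, so that 23.6% were called against 16.1% of all tested genes, with a median log2 change of 0.09 against 0.05. Without siCtrl 2, 25 of them passed, as did 31.1% of all tested genes. Leaving out any 1 of the siNUDT5 libraries left 6 (6.26% to 6.86% of all tested genes passed), and leaving out siCtrl 3 left 7 (7.01%). TMEM41B, PINK1, RTN3, ATL3 and VAMP8 passed whichever library was left out, PRKAB2 lost its call without siNUDT5 3, and the other 7 lost theirs without siNUDT5 1, without siNUDT5 2 and, except VPS11, without siNUDT5 3.

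Among 18 signalling and transcription genes 3 fell and none rose, against 5.2% and 10.9% of all tested genes. Their median log2 change was 0.03, against 0.05 for all tested genes. PRKAB2, a beta subunit of the energy-sensing kinase AMPK, had 41.0, 36.2 and 35.6 TPM in siNUDT5 1 to 3 and 51.2, 64.2 and 56.5 TPM in siCtrl 1 to 3 (log2 change -0.59, adjusted p = 0.00924). PRKAB1, the other beta subunit, had 24.5, 27.1 and 23.1 TPM in siNUDT5 and 31.0, 31.7 and 32.4 TPM in siCtrl (-0.34, adjusted p = 0.0405). MITF, a transcription factor of the TFEB family, had 10.4, 9.17 and 10.6 TPM in siNUDT5 and 13.6, 21.8 and 16.7 TPM in siCtrl (-0.71, adjusted p = 0.0211). PRKAB1 also lost its call without either siCtrl 1 or siCtrl 3, and MITF without siCtrl 3. In all 3 genes the siNUDT5 values were below every control, and siCtrl 2 was the highest control for PRKAB2 and MITF. TFEB, at 2.03 ± 0.554 TPM in siNUDT5 and 1.28 ± 0.0563 TPM in siCtrl, and TFE3, at 128 ± 3.88 TPM in siNUDT5 and 145 ± 14.0 TPM in siCtrl (SD, n = 3 each), did not pass. The AMPK catalytic genes PRKAA1 (-0.10) and PRKAA2 (0.24) and the kinase gene MTOR (0.15) did not pass either.

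Of 13 other core factors tested 2 rose and 1 fell, against 10.9% and 5.2% of all tested genes. Their median log2 change was 0.10, against 0.05 for all tested genes. TMEM41B, an endoplasmic reticulum scramblase that works with VMP1, had 22.5, 20.6 and 21.8 TPM in siNUDT5 1 to 3 and 10.2, 15.0 and 11.1 TPM in siCtrl 1 to 3 (log2 change 0.80, adjusted p = 0.00752). The groups were well apart, whereas those of VMP1 overlapped. TECPR1, which binds the ATG12-ATG5 conjugate on lysosomes, had 13.2, 14.1 and 13.0 TPM in siNUDT5 and 10.5, 7.79 and 10.5 TPM in siCtrl (0.46, adjusted p = 0.0451). It did not pass under the other scalings or without siCtrl 3. MAP1LC3C, a rare LC3 gene, had 0.960, 0.727 and 1.09 TPM in siNUDT5 and 2.86, 1.79 and 1.79 TPM in siCtrl (-0.70, adjusted p = 0.0230), a level at which few reads lie behind each value. With a pseudocount of 0.1 its log2 change was -1.11 and with one of 5 it was -0.27.

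Among 12 tested mitophagy and endoplasmic reticulum autophagy genes 3 rose and none fell, with a median log2 change of 0.19. Of all tested genes 10.9% rose and 5.2% fell, with a median of 0.05. RTN3, a receptor for tubular endoplasmic reticulum, had 127, 119 and 114 TPM in siNUDT5 1 to 3 and 66.9, 82.9 and 67.5 TPM in siCtrl 1 to 3 (log2 change 0.73, adjusted p = 0.00337). ATL3, another such receptor, had 69.9, 65.0 and 64.3 TPM in siNUDT5 and 42.5, 49.9 and 46.3 TPM in siCtrl (0.52, adjusted p = 0.00798). For both the lowest siNUDT5 library was well above the highest control, siCtrl 2. PINK1, the kinase that marks damaged mitochondria, had 45.4, 48.4 and 43.4 TPM in siNUDT5 and 30.5, 25.2 and 30.4 TPM in siCtrl (0.66, adjusted p = 0.00530). Of the 2660 exonic bases of PINK1 in GENCODE 29, 1545 overlap the antisense gene PINK1-AS, so its reads cannot be assigned with certainty when the use of strand is unknown. The mitophagy receptors BNIP3 (0.03) and FUNDC1 (0.04) did not pass.

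In the fusion list 3 of 12 genes rose and 1 fell, against 10.9% and 5.2% of all tested genes. The list had a median log2 change of 0.06, against 0.05 for all tested genes. VAMP8, a SNARE that drives fusion of autophagosomes with lysosomes, had 10.1, 7.97 and 8.93 TPM in siNUDT5 1 to 3 and 21.3, 18.0 and 17.9 TPM in siCtrl 1 to 3 (log2 change -1.01, adjusted p = 0.00188). Its values in siNUDT5 were all well below the controls. Its partners STX17 (-0.26) and SNAP29 (0.11) did not pass, nor did YKT6 (0.02), an alternative SNARE. The genes that rose were VPS11 (0.51, adjusted p = 0.0180) and VPS18 (0.41, adjusted p = 0.0417), subunits of the HOPS tethering complex, and PLEKHM1 (0.39, adjusted p = 0.0417), an adaptor that binds HOPS and LC3. None of the 3 passed without siCtrl 3, and VPS18 and PLEKHM1 did not pass under the other scalings. VPS11 had 15.0, 15.8 and 13.0 TPM in siNUDT5 and 10.4, 9.10 and 10.3 TPM in siCtrl, with no overlap, while the HOPS genes VPS16 (0.15), VPS33A (-0.11), VPS39 (-0.14) and VPS41 (-0.09) did not pass.

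**Figure D5:**
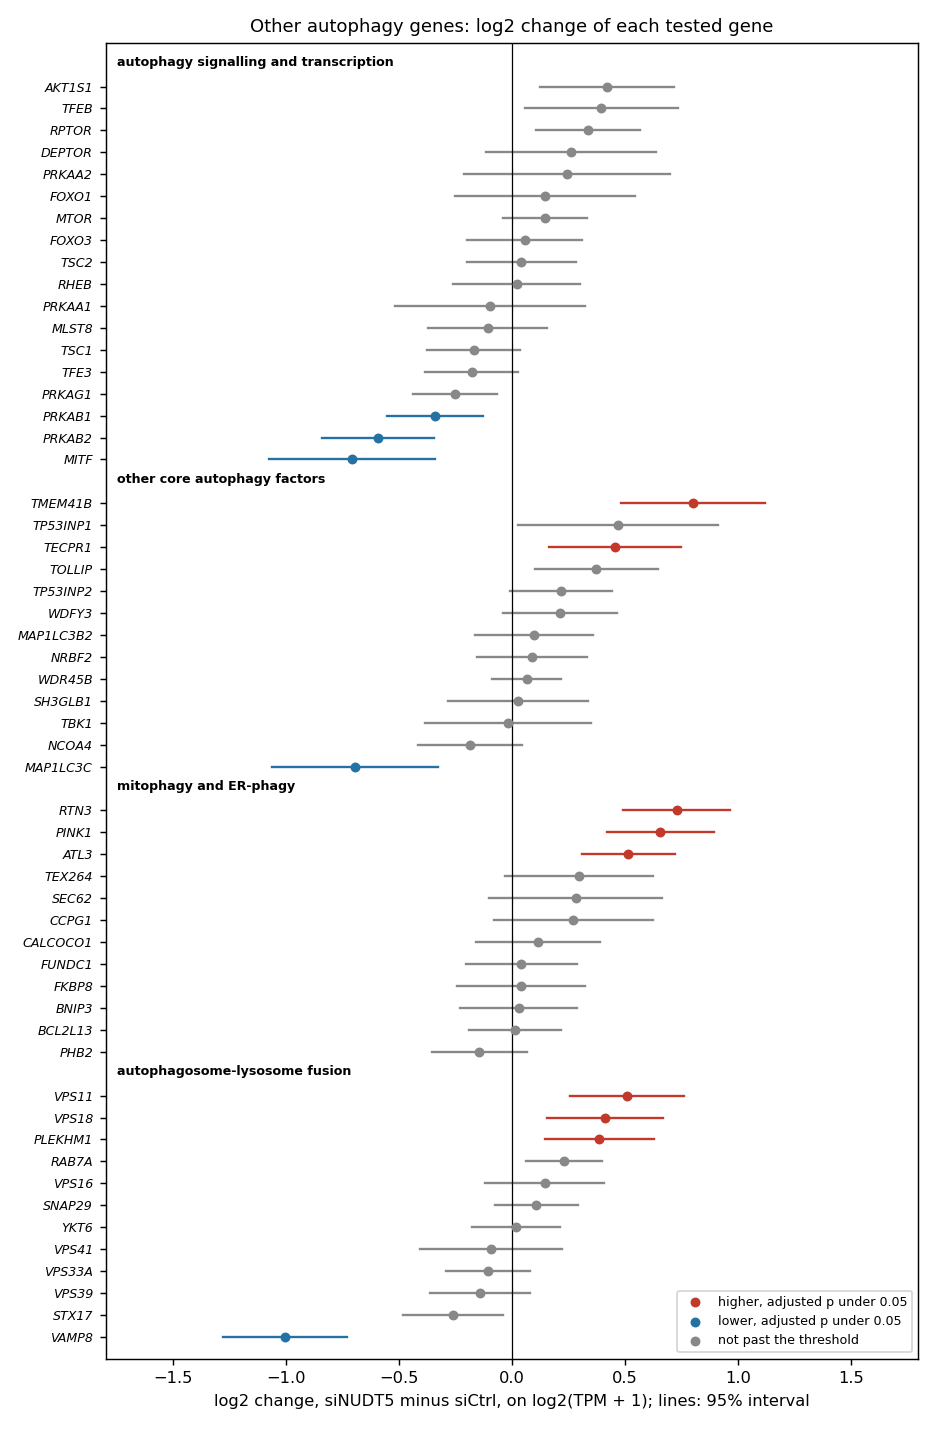
Log2 change, siNUDT5 minus siCtrl on the log2(TPM + 1) scale, of the 55 tested genes of 4 further autophagy lists, with points for estimates and lines for 95% intervals from limma. Red points (8 genes) rose and blue points (5 genes) fell, TMEM41B with the highest and VAMP8 with the lowest log2 change.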

How the data were processed

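mRNA of 6 U2OS samples was sequenced from strand-specific libraries, per the labels' protocols. The deposited values are TPM per gene symbol, each library summing to 1000000, made by the authors. The build hg19 and the tools DESeq2 1.22.1 and STAR 2.7.3a appear, with no role stated, per the submitters' processing notes, and for the annotation, the counting and the use of strand the sources used here give nothing. Groups came from the titles. Because TPM are not counts, limma 3.58.1 in R 4.3.3 (lmFit, eBayes with a trend) was fitted to log2(TPM + 1) of the 12236 genes averaging 1 TPM or more, siNUDT5 minus siCtrl, two-sided, with Benjamini-Hochberg adjustment over all of them. This scale understates the change of low genes. Means, SDs, the exact permutation test and figures used Python 3.11.15, numpy 2.4.6, pandas 2.3.3, scipy 1.17.1 and matplotlib 3.10.9. TPM keeps no total depth. For relative depth, ratios to siCtrl 1 of genes under 0.3 TPM were divided by 1 factor per library, and 72.0% to 81.5% of them then matched, to 0.1%, a quotient of integers up to 5. The fit was checked on simulated data. Members, lists, words and motifs were chosen with earlier results of these data known, and all members are named, with up to 4 genes past the threshold from each further list. Genes of those lists that did not pass were named after their values were seen. Older symbols were matched through RefSeq synonyms. Tried instead were a pseudocount of 0.1 or 5, a minimum mean of 5 TPM or none, scaling by median ratios or by quantiles, a block for the replicate number, and the omission of 1 library at a time.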

Additional observations from a re-analysis of the deposited data

How the results depend on the processing

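The 5 autophagy genes that passed kept their direction under all 13 alternatives. WIPI1, ATG5 and ATG4A passed under each, ATG13 under 12 (adjusted p up to 0.0529, with the replicate block) and ATG16L1 under 9. Among the 13 further genes that passed, TMEM41B, PINK1, RTN3 and VAMP8 did so under all 13. Leaving out each library in turn gave 4 to 16 members called (3 to 12 higher, 1 to 4 lower), 6 to 25 further autophagy genes (4 to 17 higher, 1 to 8 lower) and 766 to 3802 of all tested genes (521 to 2665 higher, 212 to 1137 lower). The highest of these counts was the one without siCtrl 2 in each case, and without siCtrl 1 ATG4D and ATG101 also passed. Median-ratio scaling gave 1041 higher and 895 lower genes and quantile normalization 1018 and 965, against 1334 and 636 as deposited. Under either scaling 3 members (ATG13, ATG10 and GABARAPL1) were lower and 5 further genes higher. Without a filter 5 further genes were higher. The labels state no pairing by replicate number. Deviations from the group means correlated at -0.43, -0.54 and -0.04 for same-numbered libraries and at -0.27 to 0.49 for the other pairings. Deviations of 3 libraries from their own mean are tied to each other, and siCtrl 2 stood apart. These values therefore cannot decide whether the libraries were paired. With the replicate block 739 genes passed (486 higher, 253 lower), 3 members (0 lower) and 6 further genes (3 higher, 3 lower). Signs turned for 5 members that never passed, given as log2 changes under median-ratio scaling, under quantile normalization and as the range over the libraries left out. VMP1 had -0.023, -0.011 and -0.061 to 0.14, MAP1LC3B had -0.040, -0.044 and -0.0996 to 0.13, and TAX1BP1 had -0.022, -0.024 and -0.094 to 0.21. PIK3R4 ranged from -0.018 to 0.19 and UVRAG from -0.13 to 0.023 over the libraries left out. The cause was not tested. At low levels, as for ULK2, ATG16L2 and MAP1LC3C, few reads limit what can be seen.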
